A study of Mus musculus with 61 samples.

Results

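Foxp3 and 8 other genes associated with regulatory T cells were followed through 61 RNA-seq libraries of C57BL/6 mice aged 2 months, the knock-in mice having been made in the substrain C57BL/6N. The members were the rows named Foxp3, Ikzf2, Ikzf4, Lrrc32, Itgae, Nrp1, Ebi3, Gpr83 and Nt5e in the table of gene counts, 9 of 24421 gene rows, and all 9 were found in every library. The libraries came from 3 materials. CD4+ T cells (30 libraries, 10 groups of 3) were sorted as naive CD4+CD44low CD25- cells from lymph nodes and spleen. They were stimulated through the T-cell receptor and CD28, transduced with a retrovirus and kept with IL-2 for 48 h. The sequenced cells were sorted for GFP. The recipient cells were either wild type (WT) or lacked Stat5a and Stat5b, which Cd4-Cre had deleted from the double-positive stage of thymic development in CD4 and CD8 cells (called null below). In each background the virus was empty or carried unmutated STAT5B or its N642H, Y665F or Y665H form. The genotype label names floxed Stat5a/b for all 30 CD4+ libraries, those titled WT included, so the background was taken from the titles. Total T cells of the spleen (15 libraries) came from WT, Y665H and Y665F knock-in mice. For 4 libraries of each genotype the cells were cultured for 24 h with IL-2 and IL-7. Of these Y665H libraries 1 holds the summed reads of 2 others, which leaves 3. Replicates 2 and 3 among those 3 were close to each other, as given below. A further 3 Y665F libraries had no interleukin, and no time in culture is given for them. Spleen (16 libraries) came from 4 WT, 5 Y665H and 7 Y665F mice. Those libraries are titled as splenocytes while the methods name frozen spleen tissue, and which was used was not settled here. The comparisons asked how the activating Y665F and the impaired Y665H form of STAT5B, against N642H and unmutated STAT5B, bear on this set of genes.

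Regulatory T cells are CD4+ T cells that restrain other lymphocytes, and Foxp3 is the transcription factor that defines them. They depend on IL-2, whose receptor signals through JAK1, JAK3 and STAT5, and STAT5 binds the Foxp3 locus. Ikzf2 (Helios) and Ikzf4 (Eos) are zinc finger proteins of the Ikaros family, and Eos acts with Foxp3 as a repressor. Lrrc32 (GARP) holds latent TGF-beta on the cell surface. Itgae (CD103) is the integrin chain that binds E-cadherin. Nrp1 is a receptor for semaphorins and vascular growth factor. Ebi3 is a subunit shared by heterodimeric cytokines of the IL-12 family. Gpr83 is a G protein-coupled receptor. Nt5e (CD73) makes extracellular adenosine from AMP. None of these genes apart from Foxp3 is restricted to regulatory T cells, and activated T cells, B cells, endothelium or stroma express several of them.

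The sequence before the start of Foxp3 and Gpr83 is shown because these genes were higher with Y665F in the tests that follow, Foxp3 in null CD4+ cells and in spleen and Gpr83 in CD4+ cells of both backgrounds. RefSeq held promoter windows for 5 of the 9 members, Foxp3 with 2 annotated starts, on build GRCm38.p6. The 250 bases before each start are printed 5′ to 3′ on the plus strand, in lower case, with the STAT5 motif TTCNNNGAA in capitals where the letters occur. The motif reads the same on both strands, and it was found in 2726 of 32851 windows of 300 bases (250 before and 50 after the start), or 8.3%.
Foxp3, chrX:7579426-7579675: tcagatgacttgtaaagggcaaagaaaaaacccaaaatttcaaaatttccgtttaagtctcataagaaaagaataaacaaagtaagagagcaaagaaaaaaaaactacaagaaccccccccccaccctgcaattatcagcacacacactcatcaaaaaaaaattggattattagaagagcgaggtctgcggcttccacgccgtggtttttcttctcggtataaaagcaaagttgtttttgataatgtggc
Foxp3, chrX:7580233-7580482: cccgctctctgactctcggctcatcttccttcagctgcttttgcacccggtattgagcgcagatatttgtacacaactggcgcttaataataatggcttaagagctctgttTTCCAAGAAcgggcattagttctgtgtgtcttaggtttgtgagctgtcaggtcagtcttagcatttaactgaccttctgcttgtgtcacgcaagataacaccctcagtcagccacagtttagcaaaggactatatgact
Gpr83, chr9:14859960-14860209: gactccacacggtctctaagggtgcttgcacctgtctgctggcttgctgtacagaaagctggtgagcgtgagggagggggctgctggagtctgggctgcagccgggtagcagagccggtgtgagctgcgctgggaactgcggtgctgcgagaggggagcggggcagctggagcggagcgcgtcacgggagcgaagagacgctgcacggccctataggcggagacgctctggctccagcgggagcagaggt
The match in Foxp3 begins 139 bases before the second start. The first Foxp3 window and those of Gpr83, Nrp1, Nt5e and Ebi3 held no match, which says only that these letters are not in these windows. Ikzf2, Ikzf4, Lrrc32 and Itgae had no window.

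Reads on genes ranged from 18825994 to 49850689 per CD4+ library, from 2017012 to 27394249 per splenic T-cell library and from 24203179 to 43330536 per spleen library. Levels are given in counts-per-million units (CPM) scaled by edgeR's TMM factors within each material, so they were not compared between materials. In null cells with the empty vector Stat5a stood at 1.70, 3.13 and 6.66 CPM and Stat5b at 2.78, 5.30 and 9.49 CPM, against 137 to 172 and 187 to 209 CPM in WT cells with the empty vector. In bulk RNA, fewer cells of a type and less RNA per cell cannot be told apart. The strand setting of the counting was not stated, so reads of some members cannot be separated from those of their partners on the opposite strand. These are Foxp3 (which overlaps Ppp1r3f, Gm36995 and Ccdc22), Ikzf2 (Gm29114), Ikzf4 (Gm26876), Itgae (Haspin) and Ebi3 (Gm16712). Overlaps on the same strand, which no strand setting removes, are those of Foxp3 (Flicr), Ikzf2 (Gm29112 and Gm28112) and Nrp1 (Mir1903). Replicates are separate libraries of a group, and p-values measure the spread between them, whether biological or technical. Where groups are said not to overlap, the share of all genes that do the same was not counted.

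Per kilobase of exon, Foxp3 (4577 exon bases) was a gene of middling level in every material. In WT CD4+ cells with the empty vector the order by level was Nrp1 at 27.8 CPM per kb, Lrrc32 at 17.2, Nt5e at 8.25, Ikzf4 at 6.41, Ebi3 at 5.21, Foxp3 at 1.84, Gpr83 at 1.79, Ikzf2 at 0.778 and Itgae at 0.423 CPM per kb. In null cells with the empty vector Ikzf2 stood at 8.56 and Lrrc32 at 0.612 CPM per kb, so that these genes changed places. In WT splenic T cells with interleukins Nt5e led with 45.0 CPM per kb and Foxp3 stood at 4.55, while Ebi3 was at 0.0972 CPM per kb. In WT spleen Nrp1 led with 12.7 CPM per kb, Foxp3 stood at 1.81, and Ikzf4 was lowest with 0.418 CPM per kb. Endothelial and stromal cells of the spleen also express Nrp1.

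Foxp3 (X:7573644-7595245, plus strand, GENCODE vM21 on GRCm38) was higher in CD4+ cells that received Y665F or N642H, in both backgrounds. In null cells the empty vector gave 3.41, 10.8 and 3.18 CPM in replicates 1 to 3. STAT5B gave 11.3, 14.3 and 8.84 CPM, and Y665H gave 5.04, 16.4 and 3.05 CPM. These 3 groups overlapped, and replicate 2 was the highest of each. Y665F gave 18.0, 21.1 and 15.2 CPM and N642H gave 21.6, 18.5 and 18.7 CPM, all above every library with the empty vector. Against the empty vector, Foxp3 rose by 1.61 ± 0.48 (log2 fold change ± SE) with Y665F, at an adjusted p of 0.0406 in edgeR's quasi-likelihood test. With N642H it rose by 1.71 ± 0.48, adjusted p = 0.0257. Replicate numbers marked libraries that deviated together within each background, so the fit was repeated with a term for that number (the replicate block). With the block the Foxp3 difference from the empty vector was 1.77 ± 0.32 for Y665F (adjusted p = 0.000457), 1.92 ± 0.32 for N642H (adjusted p = 0.00018) and 1.11 ± 0.32 for STAT5B (adjusted p = 0.0315, not called without the block). Each of the calls for Y665F and N642H was lost without null empty vector replicate 1 or 3 or without replicate 1 or 2 of the mutant, with adjusted p up to 0.137 and 0.0966.

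In WT cells the empty vector gave 9.87, 9.90 and 5.55 CPM of Foxp3 and Y665H gave 6.04, 13.7 and 6.47 CPM. STAT5B gave 22.6, 21.5 and 7.67 CPM, N642H gave 28.3, 38.9 and 13.8 CPM, and Y665F gave 22.4, 22.3 and 26.7 CPM. The Y665F and N642H libraries were all above the empty vector, and the STAT5B libraries overlapped it through replicate 3. Foxp3 did not pass the test without the block, with adjusted p = 0.0966 for Y665F and 0.0619 for N642H. With the replicate block it was called, at 1.63 ± 0.28 for Y665F (adjusted p = 0.000425) and 1.64 ± 0.28 for N642H (adjusted p = 0.000329). Ordered by mean over the 10 groups, Foxp3 ran from 27.0 ± 12.6 CPM (SD, n = 3) in WT cells with N642H to 5.80 ± 4.34 CPM (SD, n = 3) in null cells with the empty vector. Neighbours in that order overlapped, except WT Y665F (23.8 ± 2.54 CPM) over null N642H (19.6 ± 1.72 CPM).

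**Figure D1:**
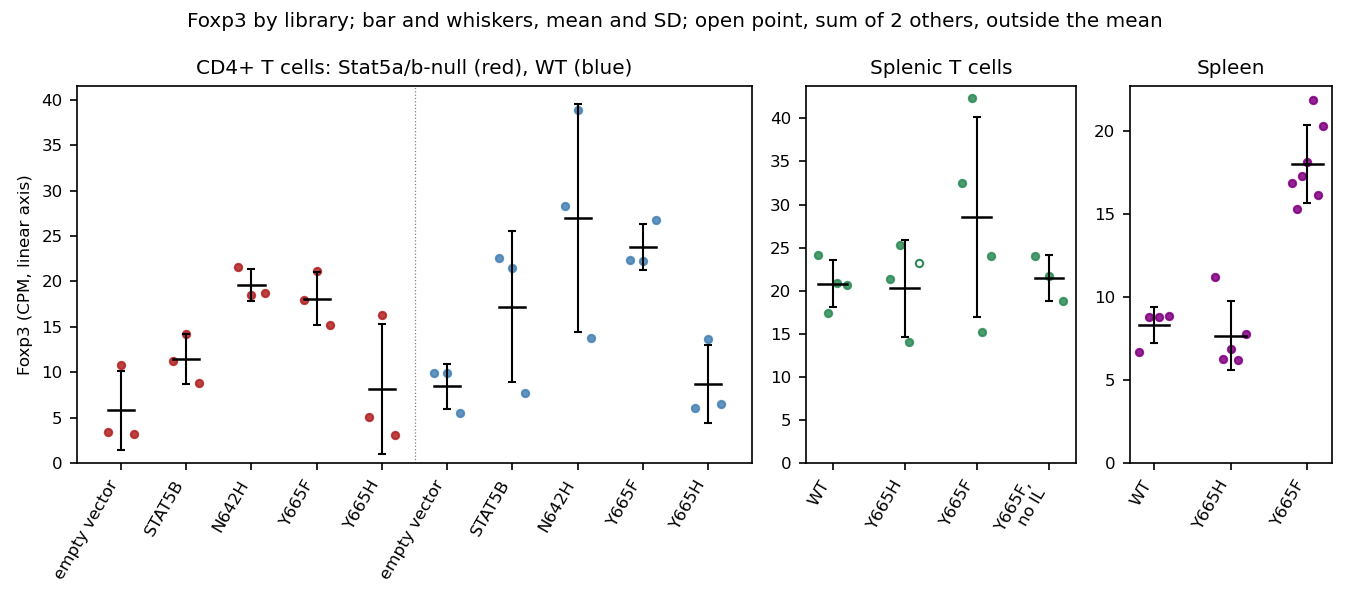
Foxp3 in each library in CPM (linear axis), in CD4+ cells, splenic T cells and spleen, with a bar for the group mean and its SD (the open point, a sum of 2 other libraries, is outside the mean). In CD4+ cells every Y665F and N642H library lies above the empty vector libraries of the same background, and in spleen the 7 Y665F libraries lie between 15.3 and 21.9 CPM, above all others.

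Of the 9 members, 5 passed the test in null CD4+ cells with Y665F against the empty vector, 4 higher and 1 lower, where 9.58% of the 20113 genes tested were called. The median log2 fold change was 0.21 over the members and -0.02 over all genes. The same count, 4 higher and 1 lower, was found with N642H, where 11.6% of genes were called and the medians were 0.17 and 0.01. Both comparisons used the same empty vector libraries. Foxp3, Ikzf4, Lrrc32 and Gpr83 were the members that rose and Nt5e was the member that fell.

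Lrrc32 (7:98489283-98502181, plus strand), the anchor of latent TGF-beta, showed the widest difference among the members. The empty vector gave 1.54, 2.38 and 4.69 CPM in null cells and Y665H gave 1.57, 5.35 and 4.46 CPM. STAT5B gave 15.9, 13.3 and 7.18 CPM, Y665F gave 24.8, 28.0 and 17.0 CPM, and N642H gave 25.5, 25.6 and 24.8 CPM. The 3 groups with STAT5B, Y665F or N642H did not overlap those with the empty vector or Y665H. Against the empty vector Lrrc32 rose by 3.01 ± 0.41 with Y665F (adjusted p = 0.000184) and by 3.12 ± 0.41 with N642H (adjusted p = 0.000116).

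Gpr83 (9:14860210-14870789, plus strand), the G protein-coupled receptor with no motif match in its window, stood at 3.30, 3.65 and 3.38 CPM with the empty vector and at 3.32, 5.06 and 4.01 CPM with Y665H. It stood at 6.44, 7.59 and 5.67 CPM with STAT5B, at 13.5, 18.0 and 9.07 CPM with Y665F and at 15.3, 19.5 and 9.54 CPM with N642H. The Y665F and N642H libraries all exceeded those with STAT5B, which all exceeded those with the empty vector. Gpr83 rose by 1.95 ± 0.27 with Y665F (adjusted p = 0.000221) and by 2.08 ± 0.27 with N642H (adjusted p = 0.00011).

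Ikzf4 (10:128630843-128645991, minus strand), which encodes the Foxp3 partner Eos, stood at 8.58, 15.6 and 12.6 CPM with the empty vector and at 28.6, 46.6 and 31.0 CPM with Y665F. With N642H it stood at 38.2, 43.6 and 41.9 CPM, and with STAT5B at 32.4, 21.9 and 23.8 CPM. None of these overlapped the empty vector. The difference was 1.50 ± 0.29 for Y665F (adjusted p = 0.00327) and 1.71 ± 0.29 for N642H (adjusted p = 0.00102). Nt5e (9:88327197-88372092, plus strand), the adenosine-producing enzyme, moved the other way. It stood at 169.6, 124.2 and 115.8 CPM with the empty vector, at 88.7, 64.8 and 74.2 CPM with Y665F and at 74.2, 59.7 and 63.1 CPM with N642H, again without overlap. It fell by 0.87 ± 0.19 on the log2 scale with Y665F (adjusted p = 0.00572) and by 1.09 ± 0.19 with N642H (adjusted p = 0.000966). The Nt5e call for Y665F was lost without Y665F replicate 2 (adjusted p = 0.0514).

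**Figure D2:**
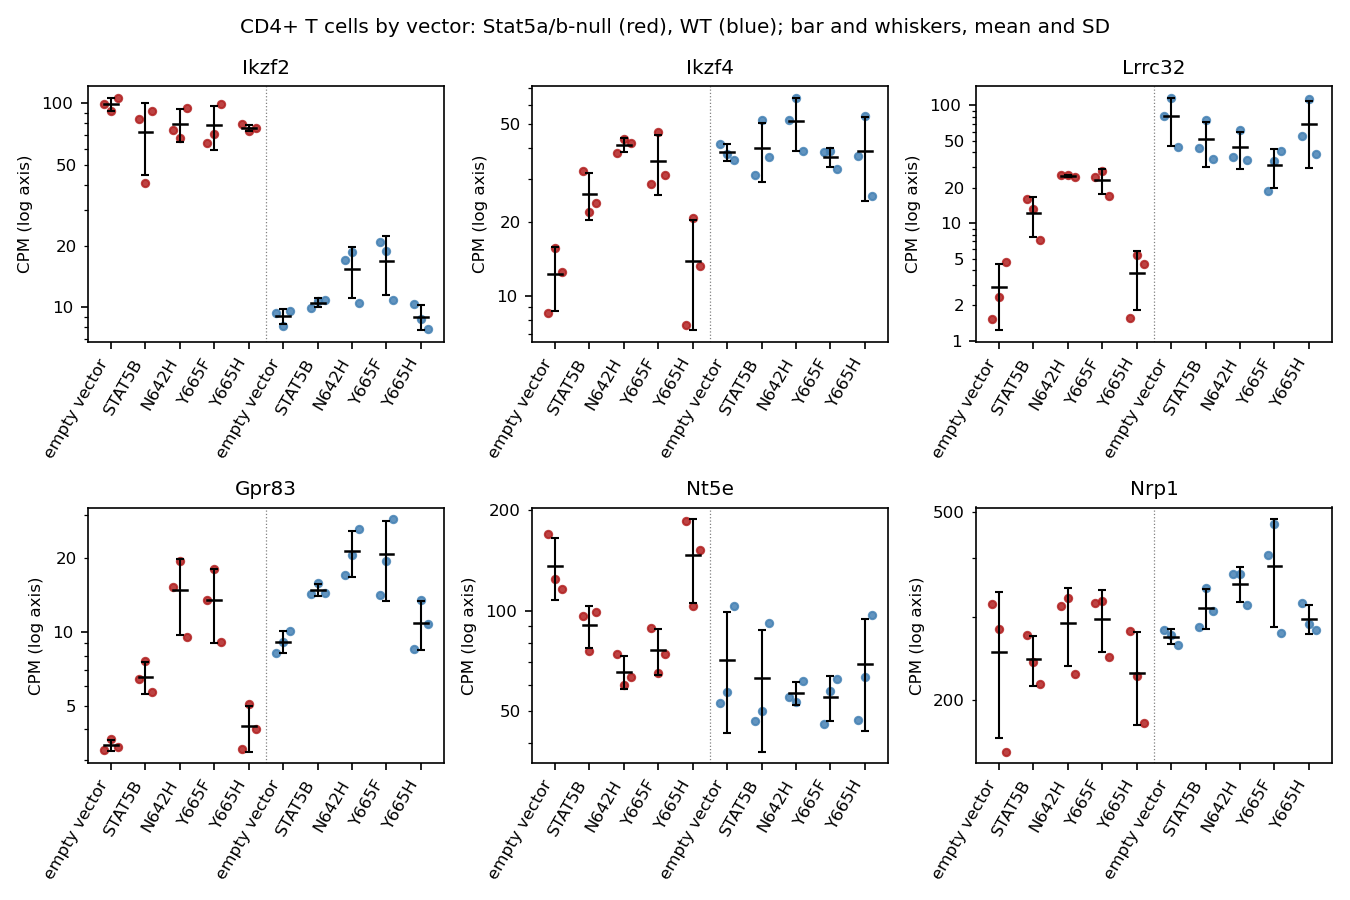
Ikzf2, Ikzf4, Lrrc32, Gpr83, Nt5e and Nrp1 in the 30 CD4+ libraries in CPM on a log axis, by vector and background, with group means. In null cells Lrrc32, Gpr83 and Ikzf4 lie higher and Nt5e lower with Y665F and N642H than with the empty vector, and Ikzf2 lies higher in null than in WT cells with each vector.

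With unmutated STAT5B in null cells, Lrrc32 was the 1 member called against the empty vector (2.09 ± 0.40, adjusted p = 0.0141), where 1.52% of genes were called and the medians were -0.06 over the members and 0.00 over all genes. That call was lost without null empty vector replicate 1 or 2 or STAT5B replicate 1 or 2, with adjusted p up to 0.0961. With the replicate block 5 members were called, where 9.50% of genes were called. They were Foxp3, Ikzf4 (1.15 ± 0.23), Lrrc32 (2.12 ± 0.37), Gpr83 (0.91 ± 0.19) and Nt5e (-0.60 ± 0.11). With Y665H against the empty vector edgeR called 0 members, 0 had an unadjusted p under 0.05 and DESeq2 called 0, where 0.0249% of genes were called and the member median was 0.13 against 0.04 over all genes. Of the 20113 genes in that comparison, 1021 had an unadjusted p under 0.05.

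Set against STAT5B itself, no mutant differed in a member that passed edgeR's test without the block. For Y665F edgeR called 0 members (0.0199% of genes called), with 2 at an unadjusted p under 0.05 and 1 by DESeq2. For N642H it called 0 (0.0845% of genes), with 4 at an unadjusted p under 0.05 and 1 by DESeq2, and for Y665H it called 0 (0.229% of genes), with 4 and 2. Of 20113 genes, 1000, 1221 and 2126 had an unadjusted p under 0.05 for Y665F, N642H and Y665H. The medians over members and over all genes were 0.27 and -0.02, 0.23 and -0.01, and -0.08 and 0.06. With the replicate block, Gpr83 was higher with Y665F than with STAT5B (1.00 ± 0.17, adjusted p = 0.00711), the 1 member called where 0.512% of genes were. With N642H Gpr83 was higher (1.12 ± 0.17, adjusted p = 0.00199) and Nt5e lower (-0.48 ± 0.11, adjusted p = 0.0413), where 0.875% of genes were called. With Y665H, Ikzf4 (-0.99 ± 0.23, adjusted p = 0.0177) and Lrrc32 (-1.72 ± 0.36, adjusted p = 0.00868) were lower and Nt5e was higher (0.70 ± 0.11, adjusted p = 0.00115), where 4.18% of genes were called. Foxp3 was not called in any of these 3 comparisons.

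In WT CD4+ cells, Gpr83 was the 1 member that passed with Y665F or with N642H. It stood at 8.18, 9.10 and 10.1 CPM with the empty vector, at 14.4, 15.9 and 14.4 CPM with STAT5B, at 14.2, 19.4 and 28.9 CPM with Y665F and at 17.0, 20.7 and 26.2 CPM with N642H. All libraries with these 3 vectors exceeded the empty vector, and those with Y665H (8.48, 13.5 and 10.8 CPM) overlapped it. Gpr83 rose by 1.21 ± 0.24 with Y665F (adjusted p = 0.0213), where 1.26% of 20509 genes were called, and by 1.25 ± 0.24 with N642H (adjusted p = 0.0130), where 1.52% were called. The Y665F call was lost without WT empty vector replicate 1 or 2 or Y665F replicate 2 (adjusted p up to 0.114), and the N642H call without WT empty vector replicate 1 or 2 (up to 0.0918). The member medians were 0.08 and 0.39, beside -0.08 and -0.04 over all genes.

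With the replicate block 5 members were called with each mutant in WT cells, where 12.0% of genes were called for Y665F and 8.28% for N642H. Foxp3, Gpr83, Ikzf2 and Nrp1 rose and Lrrc32 fell. Ikzf2, the gene of Helios, rose by 0.86 ± 0.18 with Y665F (adjusted p = 0.00241) and by 0.74 ± 0.18 with N642H (adjusted p = 0.00849). Nrp1, the semaphorin receptor, rose by 0.48 ± 0.12 (adjusted p = 0.00745) and 0.38 ± 0.11 (adjusted p = 0.0409). Lrrc32 stood at 82.1, 116 and 44.4 CPM with the empty vector and at 18.9, 33.7 and 40.8 CPM with Y665F, and each Y665F library lay below the empty vector library of its number. Its difference was -1.25 ± 0.25 with Y665F (adjusted p = 0.002) and -0.83 ± 0.24 with N642H (adjusted p = 0.0353). With STAT5B, edgeR called 0 members without the block (0.00975% of genes), with 2 at an unadjusted p under 0.05 and 0 by DESeq2, and it called Gpr83 with the block (0.73 ± 0.16, adjusted p = 0.0266), where 1.09% of genes were called. With Y665H it called 0 (0.00488% of genes), with 0 at an unadjusted p under 0.05 and 0 by DESeq2. The member medians were 0.21 and 0.01, beside -0.02 and -0.01. Of 20509 genes, 555 with STAT5B and 163 with Y665H had an unadjusted p under 0.05 without the block.

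Without any STAT5B from the vector, null and WT cells differed in 5 members, where 13.9% of 21975 genes were called. The member median was -0.38 and that of all genes -0.12. Ikzf2 (1:69531214-69687245, minus strand) stood at 99.6, 92.0 and 107 CPM in null cells and at 9.39, 8.12 and 9.59 CPM in WT cells, and was higher in null cells by 3.46 ± 0.26 (adjusted p = 6.28e-10). Every null library with any vector held 40.8 CPM of Ikzf2 or more, and every WT library held 21.0 CPM or less. Lrrc32 was lower in null cells by 4.83 on the log2 scale (-4.83 ± 0.51, adjusted p = 2.3e-07), Ikzf4 was also lower (-1.65 ± 0.29, adjusted p = 0.00025), and so was Gpr83 (-1.40 ± 0.27, adjusted p = 0.000569). These did not overlap between backgrounds. Nt5e was higher in null cells (0.94 ± 0.26, adjusted p = 0.0155), a call lost without null empty vector replicate 1 or WT empty vector replicate 1 or 2 (adjusted p up to 0.106). Foxp3, at 5.80 ± 4.34 and 8.44 ± 2.501 CPM (SD, n = 3 each), was not called.

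The change from the empty vector was then compared between backgrounds as an interaction. Lrrc32 was the 1 member called for Y665F, by 4.41 ± 0.64 (95% interval 3.16 to 5.67, adjusted p = 0.000254), where 0.478% of genes were called, and for N642H, by 4.03 ± 0.64 (2.78 to 5.27, adjusted p = 0.000733), where 0.387% were. It was higher with these mutants in null cells, and in WT cells its libraries with them ranged from 18.9 to 61.8 CPM against 44.4 to 116 CPM with the empty vector. For Foxp3 the difference between backgrounds was 0.14 (95% interval -1.19 to 1.48) for Y665F and 0.08 (-1.26 to 1.41) for N642H, intervals wide enough to hold differences over 1 on the log2 scale in either direction. For STAT5B edgeR called 0 members (0.105% of genes), with 2 at an unadjusted p under 0.05 and 1 by DESeq2, and for Y665H it called 0 (0.00455% of genes), with 0 and 0. Of 21975 genes, 1079 for STAT5B and 917 for Y665H had an unadjusted p under 0.05. The member medians were 0.12, 0.08, -0.05 and 0.14, beside 0.07, 0.11, 0.05 and 0.04 over all genes.

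With a replicate block within each background, a fit chosen after the data were seen, 3 members were called for Y665F, where 4.11% of genes were. They were Lrrc32 (4.31 ± 0.48, adjusted p = 2.4e-07), Ikzf4 (1.61 ± 0.29, adjusted p = 0.000838) and Ikzf2 (-1.22 ± 0.26, adjusted p = 0.00395). For N642H 5 were called where 4.36% of genes were, the same 3 with Gpr83 (0.86 ± 0.25, adjusted p = 0.0394) and Nt5e (-0.79 ± 0.19, adjusted p = 0.0131). For STAT5B Lrrc32 was called (2.78 ± 0.47, adjusted p = 0.000693), where 1.10% of genes were. Foxp3 was called in none of these.

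Ikzf2, Itgae, Nrp1 and Ebi3 were called in no comparison within the null CD4+ cells without the block. In null cells Ikzf2 stood at 99.5 ± 7.34 CPM with the empty vector (SD, n = 3). It stood at 78.0 ± 18.9 CPM with Y665F and 79.0 ± 14.5 CPM with N642H (SD, n = 3 each). Itgae, the integrin chain, stayed between 0.751 and 4.37 CPM over all 30 CD4+ libraries. Ebi3, the cytokine subunit, lay between 2.64 and 8.29 CPM, and Nrp1 between 155 and 470 CPM. Beside the members, the summed level of a dendritic-cell list was higher with both mutants, while 1 of its 8 genes passed the test in null cells with each. The median log2 fold change of the list was -0.45 with Y665F and 0.15 with N642H in null cells, and -0.05 and -0.38 in WT cells. In null cells the 8 genes summed to 4.51 to 6.42 CPM with the empty vector, 8.53 to 12.3 with Y665F and 13.3 to 15.6 with N642H, and in WT cells to 4.50 to 11.9, 23.99 to 52.8 and 28.8 to 60.8 CPM. The 14 T-cell genes summed to 5607 to 6427 CPM in null cells with the empty vector, above 5074 to 5557 CPM with Y665F and 4943 to 5270 CPM with N642H. Of them 2 were higher and 6 lower with Y665F, and 2 higher and 7 lower with N642H. In WT cells they summed to 5605 to 7434, 5315 to 6169 and 4724 to 5466 CPM. The part of such cells in these results was not tested. Most regulatory T cells carry CD25, and the sort before culture took CD25- cells.

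Other genes tied to regulatory T cells were read from a list of 22, many of which other activated T cells also express. In null cells 6 were higher and 0 lower with Y665F (median 0.18), 7 and 0 with N642H (median 0.30), and 3 and 0 with STAT5B. Of all genes, 9.58%, 11.6% and 1.52% were called in these comparisons. Il2ra, the alpha chain of the IL-2 receptor, rose by 2.82 ± 0.22 with Y665F, the chemokine receptor gene Ccr4 by 1.55 ± 0.24 and the TNF receptor family gene Tnfrsf18 (GITR) by 0.91 ± 0.13. With N642H the same genes rose by 2.95, 1.66 and 0.84, and with STAT5B by 2.12, 1.18 and 0.75. Y665H lay below STAT5B in 1 gene of the list, Il2ra (-1.57), where 0.229% of all genes were called. It differed from the empty vector in 0 by edgeR (0.0249% of all genes), with 4 at an unadjusted p under 0.05. Of all 20113 genes, 1021 had such a p. In WT cells 0 of the 22 passed edgeR's test with Y665F (1.26% of all genes), with 5 at an unadjusted p under 0.05. Of all 20509 genes, 2932 had such a p there. With N642H 2 were higher (1.52% of all genes), among them Irf4 (0.86), a factor of activated T cells. Of 22 genes that act upstream of Foxp3, 4 were higher and 2 lower in null cells with Y665F and the same numbers with N642H, Stat5b among the higher ones, which counts the vector's own transcript. In WT cells 1 was higher and 2 lower with each, and Satb1, a chromatin organiser active early in the lineage, fell by 1.05 with Y665F and by 0.91 with N642H.

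Some of the splenic T-cell libraries stood apart or shared reads. Y665H replicate 4 equalled the sum of replicates 1 and 2 in all 24421 gene rows (5327354 reads against 3310342 and 2017012), so it is no separate sample. It was left out of group means, and each test below was run with it and without it. The chi-square of read counts per gene was 3.32 between Y665H replicates 2 and 3, the lowest of 88 replicate pairs. It was 18.8 between replicates 1 and 2 and 41.4 between 1 and 3. This measure grows with depth, and replicate 2 holds the fewest reads of all libraries (2017012), which limits its rank among the 88 pairs. Whether replicates 2 and 3 came from separate mice was not tested. The macrophage list summed to 45.1 CPM in the lowest of these 3 libraries, with a median of 462 and a highest of 487 CPM. In Y665F replicates 3 and 4 with interleukins the 8 genes of a B-cell list summed to 578 and 161 CPM, against 16.9 to 104 CPM in the other splenic T-cell libraries. In Y665F libraries with interleukins the 6 erythroid genes summed to 7.86 to 1093 CPM and the T-cell list to 1514 to 4079 CPM, against 3465 to 4945 CPM of the latter in WT. The neutrophil list summed to 65.1 to 259 CPM there and to 5.92 to 12.4 CPM in WT, and the NK-cell list to 433 to 655 CPM there, 222 to 485 CPM in WT and 128 to 205 CPM in Y665H. Their part in the results was not tested. Counts of members and of listed genes are also given without Y665F replicates 3 and 4. All these fits without libraries were chosen after the data were seen.

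Splenic T cells with IL-2 and IL-7 showed no difference in Foxp3 by genotype that passed the test. Foxp3 stood at 24.2, 17.5, 20.9 and 20.7 CPM in WT, at 21.4, 25.3 and 14.1 CPM in Y665H replicates 1 to 3 and at 32.4, 42.3, 15.2 and 24.02 CPM in Y665F libraries. All groups overlapped, and Y665F without interleukins, at 23.98, 21.7 and 18.8 CPM, overlapped them too. The difference of Y665F from WT was 0.47 with a 95% interval of -0.04 to 0.98 (adjusted p = 0.298). In that comparison edgeR called 0 of the 9 members, where 1.87% of 22313 genes were called, with 2 members at an unadjusted p under 0.05 and 0 by DESeq2. Of the 22313 genes, 4620 had an unadjusted p under 0.05, about the same share as of the members. For the fits without libraries that number is not set beside the counts of this paragraph. The member median was 0.00 beside 0.07 over all genes. Without Y665H replicate 4 edgeR called 0 members there too (1.44% of genes), with 1 at an unadjusted p under 0.05 and 0 by DESeq2. Without Y665F replicates 3 and 4 it called 0 (0.0226% of genes), with 1 at an unadjusted p under 0.05, Foxp3 (0.85 ± 0.25, adjusted p = 0.329), and without all 3 of these libraries 0 (0.0408% of genes), again with Foxp3 alone at an unadjusted p under 0.05. Relative to Cd4, Foxp3 stood at 14.9 to 20.5 reads per 100 Cd4 reads in Y665F, 5.04 to 8.01 in WT and 4.39 to 11.1 in Y665H libraries with interleukins, and Cd4 itself was lower in Y665F than in WT (-1.16). Relative to Cd3e it stood at 16.1 to 22.2, 12.4 to 16.1 and 10.8 to 19.6 reads per 100 Cd3e reads. These ratios were not tested.

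Between Y665H and WT splenic T cells no member passed edgeR's test once Y665H replicate 4 was left out. Lrrc32 stood at 12.2, 21.2, 33.2 and 12.8 CPM in WT and at 3.43, 4.86 and 8.13 CPM in Y665H replicates 1 to 3. Itgae (11:73090583-73147446, plus strand) stood at 12.8, 14.6, 17.5 and 24.3 CPM in WT and at 93.4, 35.5 and 43.1 CPM in Y665H. Gpr83 stood at 25.4, 32.4, 28.5 and 26.8 CPM in WT and at 8.85, 9.72 and 14.3 CPM in Y665H. None of these genes overlapped between the groups. They were the members with an unadjusted p under 0.05, and how many of all genes lay without overlap was not counted. The differences were -1.80 ± 0.42 for Lrrc32 (adjusted p = 0.263), 1.70 ± 0.31 for Itgae (adjusted p = 0.0581) and -1.35 ± 0.33 for Gpr83 (adjusted p = 0.388). edgeR called 0 of the 9 members in that fit, and 0.00% of 22295 genes, with 3 members and 1073 genes at an unadjusted p under 0.05. DESeq2 on the same libraries called 3 members, Lrrc32, Itgae and Gpr83, and 34 genes. With replicate 4 counted as a further sample edgeR called 2 members where 0.0762% of genes were called, Lrrc32 (-1.89 ± 0.37, adjusted p = 0.0458) and Itgae (1.83 ± 0.28, adjusted p = 0.00663), with medians of -0.01 over members and -0.11 over all genes. In that fit the Lrrc32 call was also lost without WT replicate 2 or 3 or Y665H replicate 1 or 2, and the Itgae call without WT replicate 2 (adjusted p = 0.0777).

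Between Y665F and Y665H splenic T cells 3 of 9 members passed without Y665H replicate 4, where 2.74% of genes were called, with medians of 0.11 and 0.15. Lrrc32, at 20.8, 31.9, 10.7 and 29.5 CPM in Y665F, was higher by 2.06 ± 0.42 (adjusted p = 0.00698). Itgae, at 10.8, 11.3, 8.54 and 9.82 CPM in Y665F, was lower (-2.45 ± 0.32, adjusted p = 0.000114), with every Y665F library below every Y665H library. Nrp1, at 21.3 to 36.9 CPM in Y665F and 35.1 to 75.0 CPM in Y665H, was lower (-0.96 ± 0.26, adjusted p = 0.0444). Gpr83, at 27.1, 34.8, 13.4 and 19.9 CPM in Y665F, gave 1.14 ± 0.33 (adjusted p = 0.0623), and replicate 3 of Y665F lay below replicate 3 of Y665H. With replicate 4 in the fit 4 members passed where 6.18% of genes were called, Gpr83 among them (1.16 ± 0.28, adjusted p = 0.0144). Without Y665F replicates 3 and 4 but with Y665H replicate 4, 3 members passed (2.26% of genes), with Lrrc32 at 2.29, Gpr83 at 1.52 and Itgae at -2.48, and Nrp1 gave -0.62 (adjusted p = 0.252). Without all 3 of these libraries the members called were 3 (0.924% of genes), Lrrc32 at 2.17, Gpr83 at 1.45 and Itgae at -2.38.

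**Figure D3:**
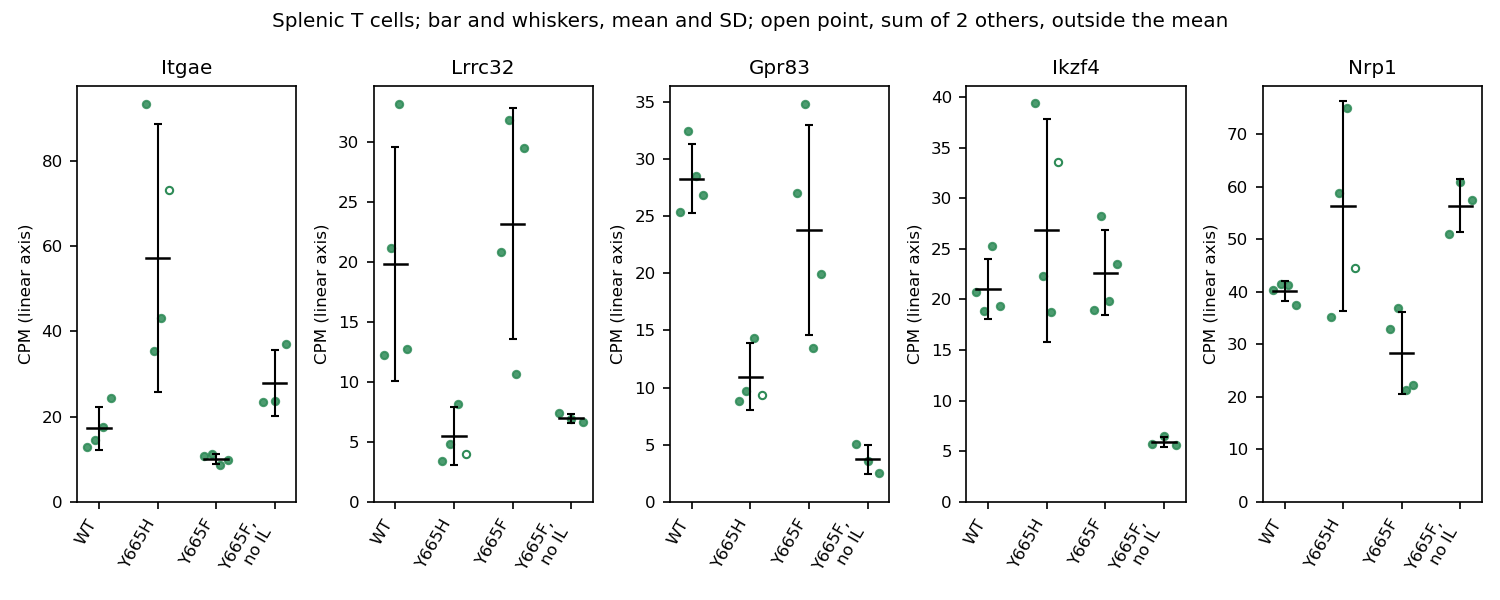
Itgae, Lrrc32, Gpr83, Ikzf4 and Nrp1 in the 15 splenic T-cell libraries in CPM (linear axes from 0), by genotype and with or without interleukins, with a bar for the mean and its SD. The open point is Y665H replicate 4, the sum of 2 other libraries, which is outside the mean. Itgae is highest in Y665H and lowest in Y665F with interleukins, and Gpr83, Lrrc32 and Ikzf4 are lower in Y665F cells without interleukins than with them.

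Y665F splenic T cells kept for 24 h with IL-2 and IL-7 differed from those without interleukins in 5 of 9 members, 3 higher and 2 lower, where 3.85% of genes were called, with medians of 0.43 and -0.13. As no time in culture is given for the latter, the interleukins and the culture cannot be told apart. Gpr83 stood at 5.03, 3.59 and 2.55 CPM without interleukins and was higher with them by 2.71 ± 0.33 (adjusted p = 1.57e-05). Ikzf4 stood at 5.67, 6.49 and 5.63 CPM without and at 19.0 to 28.3 CPM with interleukins, a difference of 1.93 ± 0.28 (adjusted p = 0.000105). Lrrc32, at 7.39, 6.95 and 6.64 CPM without, was higher with interleukins by 1.75 ± 0.39 (adjusted p = 0.00814). These genes did not overlap between the groups. Itgae stood at 23.3, 23.6 and 36.9 CPM without interleukins and was lower with them (-1.46 ± 0.30, adjusted p = 0.00401), as was Nrp1, at 51.0 to 60.9 CPM without (-0.98 ± 0.24, adjusted p = 0.0178). Ebi3 held 0 to 11 reads in each splenic T-cell library and gave no level to compare. Without Y665H replicate 4 in the fit 5 members passed, where 3.08% of genes were called. Without Y665F replicates 3 and 4 of those with interleukins 5 passed (7.02% of genes), with Gpr83 at 3.07, Ikzf4 at 1.99, Lrrc32 at 1.91 and Itgae at -1.35. Nrp1 was not among them (adjusted p = 0.106) and Nt5e was, higher with interleukins by 1.05 ± 0.23 (adjusted p = 0.00578), while Foxp3 gave 0.80 ± 0.26 (adjusted p = 0.0708). Without all 3 libraries 5 passed too (5.75% of genes). Calls were lost without replicate 1 or 3 (Lrrc32, adjusted p up to 0.0643), replicate 3 (Itgae, 0.0578) or replicate 2 or 3 (Nrp1) of the libraries without interleukins, or, for Nrp1, replicate 4 with them.

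Of the 22 other regulatory T-cell genes, 3 were higher and 0 lower in Y665F than in WT splenic T cells (median 0.24). Of all genes, 1.87% were called there. Among them Il1rl1, the IL-33 receptor, rose by 1.66, Entpd1 (CD39), which makes the AMP that Nt5e uses, by 1.36, and Cd83 by 2.18. Without Y665H replicate 4 in the fit the count was 3 higher and 0 lower (1.44% of all genes). Without Y665F replicates 3 and 4 edgeR called 0 (0.0226% of all genes), with 8 at an unadjusted p under 0.05. Between Y665H and WT 0 passed edgeR's test (0.0762% of all genes), with 10 at an unadjusted p under 0.05 (median -0.42). Of all 22313 genes, 1981 had such a p there. Without replicate 4 edgeR called 0 (0.00% of all genes), with 10 at an unadjusted p under 0.05, and DESeq2 called 0. Between Y665F and Y665H 11 were higher and 0 lower (median 1.07), where 6.18% of all genes were called. Tnfrsf9 (4-1BB) stood at 2.75, Il1rl1 at 2.68 and Il2ra at 2.03. The count of 11 fell to 5 higher and 0 lower without Y665H replicate 4 (median 1.00). It fell to 6 without Y665F replicates 3 and 4 and to 4 without all 3 libraries. The shares of all genes called were 2.74%, 2.26% and 0.924%. With interleukins against none 6 were higher and 0 lower (median 0.67), with Tnfrsf9 at 2.89 and Il2ra at 2.35, where 3.85% of all genes were called. The count was 6 without Y665H replicate 4 (3.08% of all genes) and 8 without Y665F replicates 3 and 4 (7.02%). Of the genes upstream of Foxp3, Uhrf1, which keeps DNA methylation through division, was higher by 2.36 and 3.80 in these last comparisons, and Tet2, which oxidises methylated cytosine, by 0.98 in Y665F over WT. Of that list of 22, 3 were higher in Y665F than in WT, 2 without Y665H replicate 4, and by edgeR 0 without Y665F replicates 3 and 4, with 4 at an unadjusted p under 0.05. Between Y665F and Y665H the upstream genes called were 6, then 3 and 2 without these libraries. For the fits without libraries, the number of all genes at an unadjusted p under 0.05 is not set beside these list counts.

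In spleen Foxp3 was higher in Y665F mice than in WT or Y665H mice. WT spleens gave 6.67, 8.82, 8.83 and 8.89 CPM and Y665H spleens 11.2, 6.27, 6.86, 6.21 and 7.79 CPM. The 7 Y665F spleens gave 15.3 at the lowest, 17.3 at the median and 21.9 CPM at the highest. No Y665F spleen overlapped the others, and WT and Y665H overlapped. Foxp3 rose by 1.12 ± 0.15 over WT (adjusted p = 0.000319) and by 1.23 ± 0.14 over Y665H (adjusted p = 1.57e-05). The difference of Y665H from WT was -0.12 with a 95% interval of -0.44 to 0.20 (adjusted p = 0.662).

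Of the 9 members, 6 passed between Y665F and WT spleen, 5 higher and 1 lower, where 12.2% of 19418 genes were called, with medians of 0.43 and 0.00. Itgae stood at 18.3 to 20.1 CPM in WT and at 30.8, 37.4 (median) and 39.2 CPM in Y665F, a rise of 0.88 ± 0.08 (adjusted p = 8.45e-06). Ikzf2 stood at 85.1 to 99.1 CPM in WT and at 109.6, 124.5 and 136 CPM in Y665F, a rise of 0.43 ± 0.08 (adjusted p = 0.00283). Lrrc32 stood at 7.30, 9.11, 12.6 and 11.2 CPM in WT and at 14.2, 17.2 and 19.0 CPM in Y665F, a rise of 0.75 ± 0.14 (adjusted p = 0.00251). None of these overlapped. Nt5e stood at 40.4, 32.8, 32.3 and 32.6 CPM in WT and at 38.3, 43.1 and 47.2 CPM in Y665F, a rise of 0.33 ± 0.07 (adjusted p = 0.00812), with WT replicate 1 inside the Y665F range. Nrp1, the member with most reads per kilobase in spleen, was lower (-0.18 ± 0.05, adjusted p = 0.0329), at 99.9 to 115 CPM against 119.6 to 131 CPM, a call lost on leaving out any of 9 of the 11 libraries.

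Between Y665H and WT spleen 3 of 9 members passed, all lower, where 19.8% of genes were called, with medians of -0.26 and 0.00. Ikzf2 (56.8 to 79.5 CPM in Y665H) fell by 0.44 ± 0.09 on the log2 scale (adjusted p = 0.00279), Itgae (13.9 to 17.2 CPM) by 0.29 ± 0.08 (adjusted p = 0.0205) and Nt5e (28.1 to 30.2 CPM) by 0.26 ± 0.08 (adjusted p = 0.0244). None overlapped WT. The Itgae call was lost without WT replicate 2 or Y665H replicate 2 (adjusted p up to 0.0862), and the Nt5e call in 5 of 9 such fits. Between Y665F and Y665H 6 of 9 were higher and 0 lower, where 25.8% of genes were called, with medians of 0.59 and -0.01. Itgae differed by 1.17 ± 0.08 (adjusted p = 2.83e-08), Ikzf2 by 0.88 ± 0.08 (adjusted p = 7.48e-07), Nt5e by 0.59 ± 0.07 (adjusted p = 1.59e-05), Ikzf4 by 1.18 ± 0.24 (adjusted p = 0.00174) and Lrrc32 by 0.41 ± 0.13 (adjusted p = 0.0238). Ikzf4 was sparse in spleen, at 0.854 to 2.73 CPM in Y665H and 2.69 to 4.29 CPM in Y665F. Gpr83 (2.10 to 4.42 CPM) and Ebi3 (1.11 to 2.81 CPM) were called in none of the 3 comparisons.

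Markers of T cells and of other cells moved with genotype in spleen, and their part in the member differences was not tested beyond the ratios to Cd3e and Cd4 given next. The 14 T-cell genes summed to 908 to 1063 CPM in WT, 619 to 911 CPM in Y665H and 1181 to 1586 CPM in Y665F, and 9 of them were higher in Y665F than in WT, 8 lower in Y665H than in WT and 14 higher in Y665F than in Y665H. Cd3e, a chain of the T-cell receptor complex, stood at 40.3 to 55.3 CPM in WT, 24.7 to 40.1 CPM in Y665H and 75.9 to 89.5 CPM in Y665F. The 6 erythroid genes summed to 926 to 5793 CPM in Y665H against 794 to 1777 CPM in WT. The neutrophil genes summed to 97.0 to 1228 CPM in Y665H (median 937), with 6 of them higher than in WT, and to 305 to 762 CPM in Y665F against 165 to 263 CPM in WT. The 6 NK-cell genes summed to 57.1 to 82.4 CPM in Y665H, where all 6 were lower than in WT, against 145 to 172 CPM in WT and 88.4 to 183 CPM in Y665F. The 8 B-cell genes summed to 2694 to 3367 CPM in Y665F and 2746 to 3868 CPM in Y665H against 3618 to 4120 CPM in WT, with 3 and 4 of them lower. The megakaryocyte list summed to 397 to 548 CPM in Y665F against 246 to 355 CPM in WT. Y665H replicate 1 stood apart, with the highest Foxp3 (11.2 CPM), Cd3e (40.1 CPM) and T-cell sum (911 CPM) of its group. Without it 4 members passed between Y665H and WT and 7 between Y665F and Y665H, and the Foxp3 difference was -0.26 (adjusted p = 0.159) and 1.39 (adjusted p = 3.22e-07). The share of all genes called without that library is not given, so these counts are no result about the members.

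Set against Cd3e, the order of the genotypes was another one. Foxp3 stood at 16.5, 15.95, 21.4 and 19.9 reads per 100 Cd3e reads in WT, at 28.0, 25.3, 26.2, 20.7 and 28.1 in Y665H, and at 19.3, 22.8 and 24.5 (lowest, median and highest) in Y665F. The means were 18.4 ± 2.62 (SD, n = 4), 25.7 ± 3.03 (SD, n = 5) and 22.3 ± 1.97 (SD, n = 7), with overlap between each pair of genotypes. By an exact two-sided permutation test of the log2 ratio, Y665F exceeded WT by 0.277 (p = 0.0212, adjusted over 3 tests 0.0357) and Y665H exceeded WT by 0.478 (p = 0.0238, adjusted 0.0357). Y665F against Y665H gave -0.201 (exact p = 0.0530, adjusted 0.0530). The smallest p these permutation tests can give is 0.00303, 0.00794 and 0.00126. The first difference was not called without WT replicate 1 or 2 (exact p = 0.0667 each), the second not without Y665H replicate 1, 2, 3 or 5 (exact p = 0.0571 each) or WT replicate 2 (0.0536). The third was called without Y665F replicate 5 (exact p = 0.0455), Y665F replicate 7 (0.0476) or Y665H replicate 4 (0.00909).

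The choice of reference turned these comparisons. Per 100 Cd4 reads Foxp3 stood at 7.22 ± 1.03 in WT, 8.04 ± 1.02 in Y665H and 12.5 ± 0.81 in Y665F (SD, n = 4, 5 and 7), and no Y665F spleen (11.4 to 13.4) overlapped the others (5.93 to 9.04). Y665F exceeded WT by 0.806 (exact p = 0.00303) and Y665H by 0.648 (exact p = 0.00126), each the smallest p the permutation test can give, and Y665H against WT gave 0.157 (exact p = 0.286). Against the geometric mean of the T-cell list the differences were 0.532 (exact p = 0.00303, the smallest possible), 0.186 (exact p = 0.0770) and 0.346 (exact p = 0.0317). Foxp3 per Cd3e was thus higher in Y665H than in Y665F on average and Foxp3 per Cd4 lower. The references themselves moved unequally when scaled to the library. In Y665H against WT, Cd3e gave -0.61, Cd8a -0.89 and Cd8b1 -0.9996, all called by edgeR, and Cd4 gave -0.28 (adjusted p = 0.139). In Y665F against WT, Cd3e gave 0.83, Cd8a 0.50 and Cd8b1 0.76, all called, and Cd4 gave 0.32 (adjusted p = 0.0938). Their part in the differences of Foxp3 per Cd3e was not tested.

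**Figure D4:**
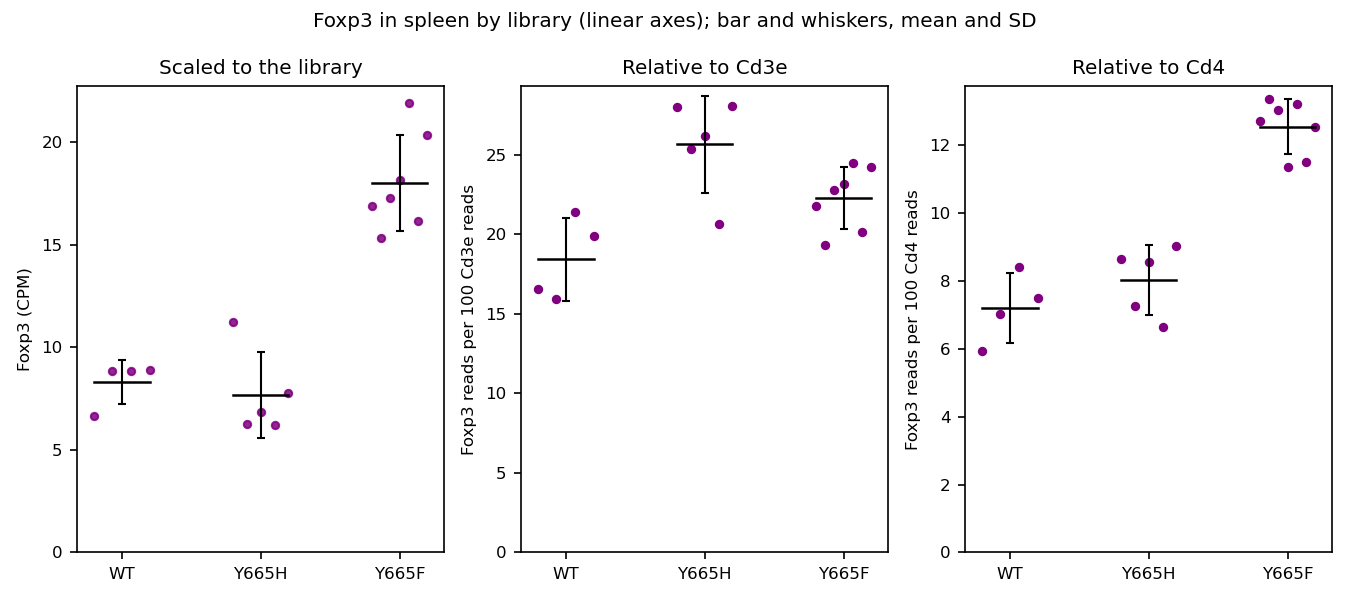
Foxp3 in the 16 spleen libraries in CPM, per 100 Cd3e reads and per 100 Cd4 reads, each point 1 spleen, with a bar for the mean and its SD. Y665F spleens lie apart from the others per library and per Cd4 but overlap both other genotypes per Cd3e, where the means are 18.4, 25.7 and 22.3.

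Scaled to Cd3e, all genes moved together, so that counts of members have to be read against that shift. Between Y665F and WT 5 of 9 members were lower and 0 higher, where 75.5% of 19417 genes were called, and the median log2 fold change was -0.41 over members and -0.85 over all genes. Between Y665H and WT 6 were higher and 0 lower, where 68.8% of genes were called, with medians of 0.36 and 0.62. Between Y665F and Y665H 7 were lower and 0 higher, where 89.3% were called, with medians of -0.89 and -1.48. In Y665F against WT, Nrp1 (-1.03), Gpr83 (-0.76), Ebi3 (-0.58), Nt5e (-0.53) and Ikzf2 (-0.41) were the lower members, and the values of the others were 0.27 for Foxp3 (adjusted p = 0.0524), 0.03 for Itgae, -0.10 for Lrrc32 and -0.28 for Ikzf4. In Y665H against WT, Lrrc32 (0.94), Ebi3 (0.82), Nrp1 (0.50), Foxp3 (0.48), Nt5e (0.36) and Itgae (0.33) were higher. Of all 9, Foxp3 had the highest value in Y665F against WT and Nrp1 the lowest. Leaving out 1 library lost the call of Ebi3 in Y665F against WT in 6 of 11 fits. The calls of Itgae and Nt5e in Y665H against WT were lost in 5 and 7 of 9 such fits. That of Itgae in Y665F against Y665H was lost in 2 of 12.

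**Figure D5:**
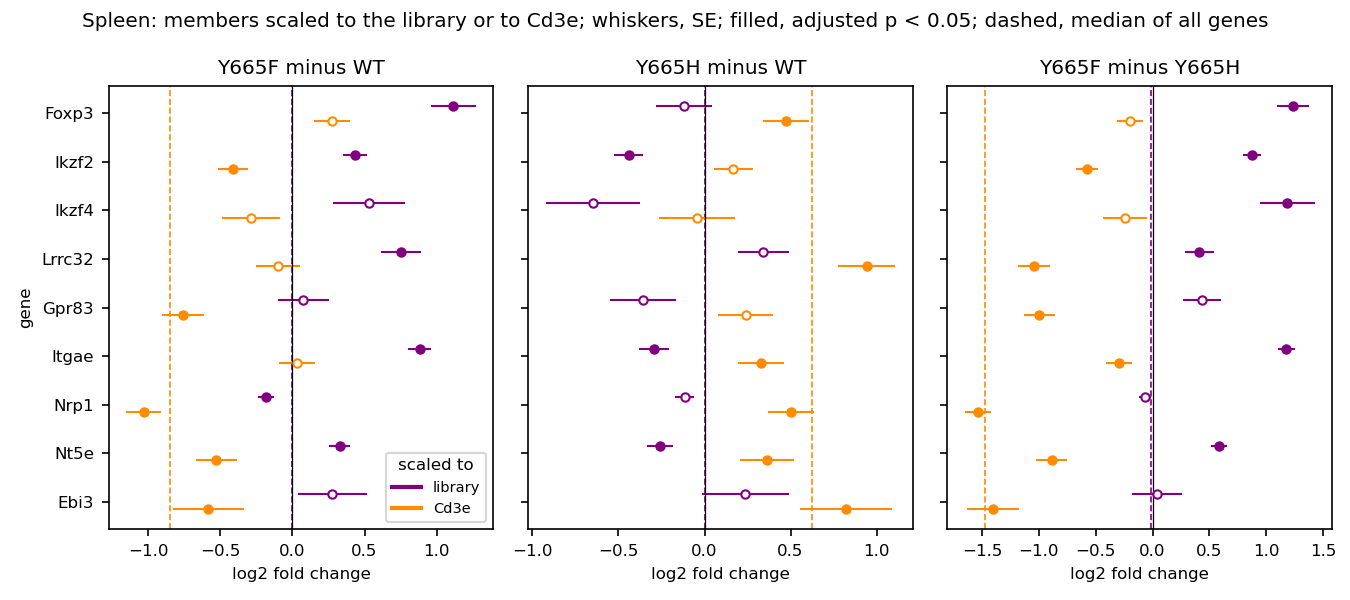
Log2 fold change ± SE of the 9 members in spleen for each pair of genotypes, scaled to library size or to Cd3e, with filled points at an adjusted p under 0.05 and dashed lines at the median of all genes. With Cd3e scaling the median of all genes lies at -0.85, 0.62 and -1.48. Foxp3 lies above that median in Y665F against WT and in Y665F against Y665H, and below it in Y665H against WT. It lies on the same sides with library scaling, as scaling to Cd3e moves all genes together.

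The list of 22 other regulatory T-cell genes was counted in the same spleen comparisons. Scaled to the library, 13 were higher and 2 lower in Y665F than in WT (median 0.50). In Y665H against WT 1 was higher and 6 lower (median -0.14), and in Y665F against Y665H 14 and 1 (median 0.58). Of all genes, 12.2%, 19.8% and 25.8% were called in these 3 comparisons. Klrg1, a receptor of mature effector and regulatory cells, rose by 1.56 in Y665F and fell by 1.38 in Y665H, Ccr4 rose by 0.94 in Y665F, and Entpd1 fell by 0.42. Per Cd3e 1 was higher and 12 lower, 14 higher and 1 lower, and 1 higher and 18 lower. Of all genes, 75.5%, 68.8% and 89.3% were called per Cd3e, so these counts have to be read against that shift of all genes. Scaled to the library, 6 of the genes upstream of Foxp3 were higher and 0 lower in Y665F than in WT. Among them was the IL-2 receptor beta chain gene Il2rb (0.95). In Y665H against WT 3 were higher and 13 lower.

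The genes whose levels followed Foxp3 most closely over the 16 spleens, by Pearson's r of log2(CPM + 1) among 14248 genes, were Zap70 (r = 0.977), Cd6 (0.976), Cd5 (0.973), Tnn (0.973) and Ubash3a (0.971). Zap70, Cd6, Cd5 and Ubash3a are genes of T cells at large. Itgae was the closest member (r = 0.949, rank 26). Over the 30 CD4+ libraries and 11459 genes the closest were D8Ertd82e (r = 0.826), Prdm2 (0.815), Neurl1a (0.812), Inpp5a (0.812) and Plaur (0.811). The closest members there were Gpr83 (r = 0.750, rank 54) and Ikzf4 (r = 0.713, rank 132), and Nt5e ran the other way (r = -0.713). These libraries share genotype groups and replicate numbers, and the values describe them without a test.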

How the data were processed

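RNA was sequenced after ribosomal RNA removal (TruSeq Stranded Total RNA). The authors deposited raw HTSeq counts per gene (version 0.9.1) on GRCm38, after Trimmomatic 0.36, STAR, SAMtools 1.9 and Picard 2.9.2. The 5 closing summary lines of each library were left out (no feature: 8.67 to 15.1% in CD4+, 34.4 to 59.4% in splenic T-cell and 54.9 to 63.5% in spleen libraries). Genes with at least 10 reads over the libraries of a fit were tested with edgeR 4.0.16 (R 4.3.3) quasi-likelihood tests, 1 fit per CD4+ background, for both backgrounds, splenic T cells and spleen, with TMM scaling or, in spleen, Cd3e counts. Benjamini-Hochberg adjustment ran over all genes, with a threshold of 0.05. SE is on the log2 scale. Ratios used a pseudocount of 0.5 and exact permutation tests. All 9 members are named, and of the 22 regulatory and 22 upstream genes only ones that passed, chosen per comparison among the 4 with the lowest p over both lists. Members and lists were chosen with earlier results of these data known. In simulated counts the null CD4+ fit recovered 80 of 91 genes changed by 1 on the log2 scale, splenic T cells 44 of 87 and spleen 80 of 89. The changed genes were drawn from well-covered ones. Libraries were simulated as independent, with Y665H splenic T-cell replicate 4 as a separate sample. Recovery of sparse members such as Ebi3, or in paired libraries, was therefore not measured. Of 88 replicate pairs 0 were identical. Y665H splenic T-cell replicate 4 equals the sum of replicates 1 and 2 in all 24421 gene rows, the 1 such case among 107970 combinations of 3 libraries. It stayed in the fits as designed, which were repeated without it, and was left out of means, SDs and outlier tests. Libraries of 1 number deviated together in null (lowest r = 0.246 of 30 pairs) and WT CD4+ cells (0.117 of 30), which gave the replicate block. The pairing is a pattern of the data, as the labels give only the number. In splenic T cells 6 of 21 and in spleen 4 of 13 pairs exceeded 0.1, and those numbers were not taken as pairs.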

Additional observations from a re-analysis of the deposited data

Results flagged for a closer look

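Lrrc32 responded differently to 2 vectors in the 2 CD4+ backgrounds. The interaction was 4.41 for Y665F and 4.03 for N642H on the log2 scale, tested as a term of the fit, and both comparisons share the empty vector libraries.

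Within groups of 4 to 10 libraries, 4 of 48 groups of member levels had a library far from the rest by Dixon's criterion, and chance gives about 1 in 20. Foxp3 in WT spleen replicate 1 was 6.67 CPM against 8.82 to 8.89 CPM in the others. Nt5e in the same library was 40.4 CPM against 32.3 to 32.8 CPM. Lrrc32 in Y665H spleen replicate 1 was 16.5 CPM against 11.1 to 12.5 CPM. Ebi3 in Y665F splenic T cells with interleukins, replicate 4, was 0.141 CPM against 0 in the others. The causes were not tested.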

How the results depend on the processing

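Of 1299 values of 86 member fold changes under alternatives, 1114 kept direction and side of the threshold, 122 lost a call, 56 gained one and 7 changed direction. Those 7 replaced Cd3e in spleen. With Cd4, Y665F against WT gave Ikzf2 0.13 and Nt5e 0.019, and Y665F against Y665H gave Foxp3 0.64, Ikzf2 0.27 and Itgae 0.55. With the T-cell list the latter gave Foxp3 0.18 and Itgae 0.092. The ratio test of Foxp3 gave 0.157 (Y665H against WT, Cd4), and 0.648 and 0.186 (Y665F against Y665H, Cd4 and T-cell list).

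Counts of members called moved as follows, and the cause was not tested. The share of all genes called is not given beside them, so a moved count is no result about the members. The number of all genes called moved with the block as well. It went from 2373 to 447 of 19418 genes in spleen (Y665F against WT). In null cells (STAT5B against empty vector) it went from 305 to 1911 of 20113 genes. DESeq2 called 4 (null STAT5B against empty vector), 1, 1 and 2 (Y665F, N642H and Y665H against STAT5B), 4 and 3 (WT Y665F and N642H), and 3, 2 and 1 (interactions of Y665F, N642H and STAT5B). The replicate block gave 5, then 1, 2 and 3, then 5, 5 and 1 (WT Y665F, N642H, STAT5B), 2, 2 and 1 for the interactions (3, 5 and 1 within each background), 1 in splenic T cells (Y665H against WT) and 3 in spleen (Y665F against WT). It changed no other count by over 1.5 times. Without a filter the count was 2 (null STAT5B), 1 (Y665H against STAT5B) and 2 (WT N642H). With the compared groups fitted alone it was 3 (null STAT5B), 2 and 2 (WT Y665F, N642H), 2 and 2 (interactions), 1 (splenic T cells, Y665H against WT) and 1 (spleen, Y665H against WT). DESeq2's size factors and edgeR's own filter each gave 1 in splenic T cells (Y665H against WT). Without Y665H replicate 4, the sum of replicates 1 and 2, it was 0 by edgeR and 3 by DESeq2 (splenic T cells, Y665H against WT). A minimum log2 fold of 1 left 1, 0 and 3 in spleen and 1, 0 and 3 per Cd3e, and Cd4 scaling left 3 and 1 (Y665F and Y665H against WT).

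Leaving out 1 replicate, counts ranged from 3 to 5 (null Y665F), 0 to 1 (null STAT5B, interaction of STAT5B, and Y665F or N642H against STAT5B), 0 to 3 (Y665H against STAT5B, WT Y665F, WT N642H, splenic T cells Y665H against WT), 1 to 2 (interaction of Y665F), 2 to 6 (interleukins against none) and 1 to 4 (spleen, Y665H against WT). The share of all genes called in each of these fits is not given, so these ranges are no result about the members. The ratio differences ranged from 0.211 to 0.352, 0.412 to 0.554 and -0.277 to -0.166. Splenic T-cell libraries down to 2017012 reads limit sparse members such as Ebi3.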
